A study of Ovis aries with 8 samples.

Results

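The genes described here are 43 genes of the cell cycle and of DNA replication, picked by their symbols from a table of 27729 genes measured in lamb liver. All 43 were found in the table. The liver came from 4 lambs labelled RES and 4 lambs labelled ADL, all with a slaughter weight of 27 kg in their labels, and poly(A)-selected RNA of each lamb was sequenced as a separate library. The labels do not spell out the 2 group names, and they give no age, breed or sex. The series title says that feed was restricted while the lambs suckled and that they were then fattened. Each library is a piece of whole liver, so the values mix hepatocytes with every other cell of the organ.

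A cell that divides passes through G1, copies its DNA in S phase and separates the copies in mitosis. D-type cyclins with CDK4 and cyclin E with CDK2 lift the block that the retinoblastoma protein places on the E2F transcription factors, and E2F then switches on the genes for origin licensing, nucleotide supply and the replication fork. Mitotic genes are switched on later, with FOXM1 and MYBL2, and their messages are scarce when a cell rests. Most hepatocytes of a grown liver are resting in G0 but can re-enter the cycle, and many copy their DNA without dividing, which makes them polyploid. In a growing animal the liver still adds cells.

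The files hold 14514084 to 16182407 assigned reads for each lamb. TPM, the unit of the levels, gives each gene's transcripts as a share of all transcripts after correction for gene length. A minimum mean of 0.1 TPM left 17781 of the 27729 genes for testing. All 43 cell cycle genes passed that minimum, 35 of them with a mean of at least 1 TPM. Their means ran between 0.492 TPM for FOXM1 and 28.8 TPM for CCND1. The scarcest had few reads behind each value, as few as 2 for CDC6 in 1 lamb, while TPX2 had up to 1292. The 10 hepatocyte markers fixed as a check on the tissue summed to between 134627 and 173015 TPM in RES lambs and to between 169113 and 189630 TPM in ADL lambs. The annotated span of 11 of the 43 genes overlaps another gene, and the sources used here do not say whether reads were counted by strand. MCM2, which overlaps the more abundant KLF15 on the opposite strand, is therefore uncertain as a value of a single gene. So is KIF20A, which shares 7788 bases with CDC23 on the opposite strand, at a mean of 5.96 TPM. TYMS shares 183 bases with the more abundant ENOSF1 on the opposite strand, at a mean of 74.6 TPM, and is uncertain as well. E2F1 shares 5191 bases with PXMP4, at a mean of 3.3 TPM. Both lie on the same strand, so E2F1 is uncertain however reads were counted. CDK1 has no start or end position in the authors' annotation, so its overlap could not be examined.

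Livers of RES and ADL lambs of the same weight were compared for the messages of dividing cells. None of the 43 genes passed limma's test adjusted by Benjamini-Hochberg over all 17781 genes, where the adjusted p of the 43 lay between 0.467 and 0.999. Over all genes the share past that threshold was 0%. The mean of log2(TPM + 1) was above ADL in RES for 40 of the 43, and the mean TPM for 39, TK1 being the gene whose sign depends on the scale, and the genes of chromosomes and the spindle had the largest median difference. The median log2 difference of the 43 was 0.19, with differences taken as RES minus ADL of log2(TPM + 1), against 0.073 over all genes tested. In liver tissue a difference in the number of cycling cells and a difference in the RNA of each cell cannot be told apart.

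This lean has to be read against that of the whole table. On the log2(TPM + 1) scale, which is used for all such counts, 93% of the 43 had a RES mean above the ADL mean, against 67.7% of all genes tested. After the TPM values were divided by size factors, which remove the common shift, 32 of the 43, or 74.4%, were above, against 50.8% of all genes. At an unadjusted limma p under 0.05 there were 4 of the 43, all higher in RES, or 9.3%. The share over all genes was 10.2%, made up of 8.58% higher and 1.65% lower in RES, so the share of the 43 is near that of the whole table. The groups did not overlap for 1 of the 43, or 2.33%, against 6.3% of all genes, made up of 5.48% higher and 0.815% lower in RES.

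Tests on reads gave few calls as well. Only 6 of the 43 carry an adjusted p in the authors' deposited table, none of them under 0.05, where 0.231% of all genes with an adjusted p are. An unadjusted p under 0.05 is given there for 5 of the 43, or 11.6%, against 5.18% of all genes. Of these 5, 4 were higher and 1 lower in RES, against 2.51% and 2.67% of all genes in the authors' deposited table. When the recovered reads were tested by voom with limma, 42 of the 43 could be tested, 0 passed the adjusted threshold, and 1 higher and 1 lower in RES had an unadjusted p under 0.05. Over all genes that voom share was 7.66%, of which 3.51% were higher in RES.

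**Figure D1:**
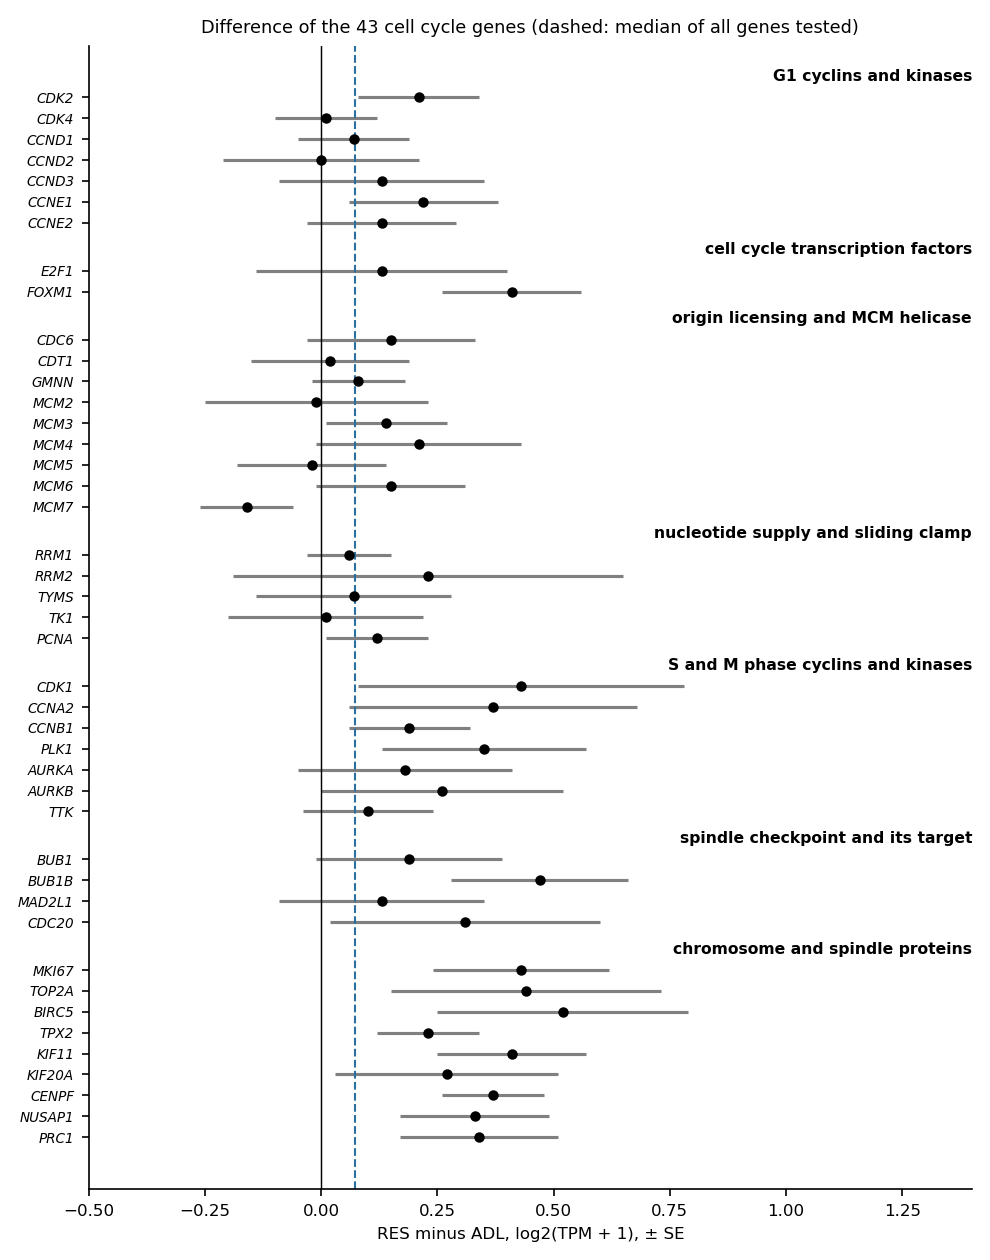
Difference of each of the 43 genes between RES and ADL on the log2(TPM + 1) scale, grouped by role, with limma's moderated SE as bars (4 lambs per group). The dashed line is the median of all genes tested, 0.073; all 9 chromosome and spindle genes lie to the right of it, and genes of the G1, licensing and nucleotide roles lie on both sides.

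The G1 cyclins and kinases decide whether a resting cell starts a new round, and they had the largest summed level of the 7 roles. CCND1, cyclin D1, which is induced by growth signals and binds CDK4, stood at 28.0, 27.5, 29.0 and 33.1 TPM in RES lambs 1 to 4 and at 25.1, 28.8, 23.7 and 34.8 TPM in ADL lambs 1 to 4. The groups overlapped, and the highest and the lowest lamb were both ADL. Its log2 difference was 0.07 ± 0.12 (SE). It was -0.03 after size-factor scaling.

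CDK4, the kinase that cyclin D1 activates, averaged 27.3 ± 3.94 TPM in RES and 27.1 ± 2.50 TPM in ADL (mean ± SD over 4 lambs, as for every group mean that follows). CDK2, the kinase of cyclins E and A, averaged 10.9 ± 1.46 TPM in RES and 9.31 ± 1.35 TPM in ADL. The cyclin E genes, which open S phase, were much scarcer: CCNE1 lay between 0.616 and 1.45 TPM in RES and between 0.399 and 1.05 TPM in ADL. All 7 genes of this role had a difference between 0.00 and 0.22, and 4 of the 7 stayed above 0 after size-factor scaling. CCND3, cyclin D3, was apart in RES lamb 3 alone, at 21.9 TPM, where the other 7 lambs lay between 9.58 and 15.0 TPM.

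E2F1 and FOXM1 are the transcription factors of the set, acting before S phase and before mitosis. FOXM1 stood at 0.855, 0.201, 0.871 and 0.921 TPM in RES lambs 1 to 4 and at 0.158, 0.258, 0.285 and 0.388 TPM in ADL lambs 1 to 4. In 3 RES lambs it was above every ADL lamb, while RES lamb 2 lay among the ADL lambs. The ratio of the group means was 2.62, the largest of the 43, but 3 to 17 reads per lamb stood behind it. Its log2 difference was 0.41 ± 0.15 (SE, limma adjusted p = 0.47, unadjusted p = 0.0263), and the authors' deposited table gives an unadjusted p of 0.0338 and no adjusted p. With a pseudocount of 0.1 in place of 1 the difference was 1.01. E2F1 averaged 1.82 ± 0.965 TPM in RES and 1.53 ± 0.651 TPM in ADL, a difference of 0.13 ± 0.27. That sign turned to -0.06 without RES lamb 3 and to -0.05 without ADL lamb 1.

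Origin licensing loads the MCM helicase, a ring of the proteins MCM2 to MCM7, onto DNA with the loaders CDC6 and CDT1, and geminin (GMNN) blocks a second loading. These 9 genes differed little between the groups, with a median log2 difference of 0.08 and summed levels of 58 ± 7.51 TPM in RES and 57.4 ± 7.56 TPM in ADL. Above 0 were 6 of the 9, and 4 after size-factor scaling. CDC6 was the scarcest of them, at 0.731 ± 0.293 TPM in RES and 0.568 ± 0.334 TPM in ADL. GMNN lay between 4.84 and 5.62 TPM in RES and between 4.41 and 5.53 TPM in ADL. Its coefficient of variation over the 8 lambs, 6.6%, was the smallest of the 43. It was no larger than the 9.45% that counting reads alone gives. All coefficients of variation here were taken on reads divided by size factors. In TPM the ratio of the highest to the lowest lamb was 1.28 for GMNN and smaller, 1.22, for RRM1.

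MCM7 was the most abundant licensing gene and the one with the largest difference on the lower side. It stood at 18.1, 19.6, 21.9 and 21.1 TPM in RES lambs 1 to 4 and at 25.5, 20.9, 20.2 and 24.1 TPM in ADL lambs 1 to 4. The groups overlapped in the middle of that range. Its log2 difference was -0.16 ± 0.10 (SE, limma adjusted p = 0.584). In the authors' deposited table MCM7 has -0.24 ± 0.11 (SE, unadjusted p = 0.0313, adjusted p = 0.453), and it is the 1 gene of the 5 there with a lower RES level. MCM2 and MCM5 also had differences just under 0, at -0.01 ± 0.24 and -0.02 ± 0.16, while the partners MCM3, MCM4 and MCM6 had 0.14 ± 0.13, 0.21 ± 0.22 and 0.15 ± 0.16. So 3 subunits of the ring had a RES mean above ADL and 3 below, none past the threshold.

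Nucleotide supply and the sliding clamp gave the same picture of small differences. All 5 genes had a log2 difference above 0, and 2 of the 5 after size-factor scaling. PCNA, the clamp that holds DNA polymerase on its template, stood at 19.9, 16.5, 21.1 and 19.0 TPM in RES lambs 1 to 4 and at 15.7, 20.1, 15.6 and 19.0 TPM in ADL lambs 1 to 4. Both groups spanned nearly the same range, and the difference was 0.12 ± 0.11 (SE). RRM1, the large subunit of ribonucleotide reductase, which is present through the whole cycle, averaged 26.7 ± 2.26 TPM in RES and 25.6 ± 1.95 TPM in ADL.

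RRM2, the small subunit that is made for S phase, varied far more than RRM1. It stood at 4.58, 1.83, 9.82 and 6.88 TPM in RES lambs 1 to 4 and at 1.96, 5.59, 3.84 and 6.59 TPM in ADL lambs 1 to 4. The highest and the lowest lamb were both RES. Over the 8 lambs its coefficient of variation was 50.7%, where counting alone gives 9.03%, and that of RRM1 was 6.94%. The thymidylate synthase TYMS lay between 4.92 and 8.38 TPM in RES and between 3.62 and 7.62 TPM in ADL. Thymidine kinase 1, TK1, averaged 1.58 ± 0.312 TPM in RES and 1.63 ± 0.708 TPM in ADL, with 4 to 16 reads per lamb.

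The cyclins and kinases of S phase and mitosis all had a RES mean above ADL, 7 of 7 and still 7 of 7 after size-factor scaling, with a median difference of 0.26. CDK1, the kinase that starts mitosis, stood at 3.16, 1.22, 6.88 and 3.42 TPM in RES lambs 1 to 4 and at 1.18, 2.52, 2.12 and 3.06 TPM in ADL lambs 1 to 4. RES lamb 3 was alone at the top, and RES lamb 2 lay beside the lowest ADL lamb. Its log2 difference was 0.43 ± 0.35 (SE).

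CCNA2, cyclin A2, ran from 1.08 to 4.05 TPM in RES and from 0.597 to 2.08 TPM in ADL. PLK1, a kinase of spindle assembly and mitotic exit, averaged 2.10 ± 0.790 TPM in RES and 1.42 ± 0.571 TPM in ADL. CCNB1, the partner of CDK1, averaged 0.758 ± 0.166 TPM in RES and 0.548 ± 0.231 TPM in ADL. The Aurora kinases AURKA of the spindle poles and AURKB of the centromere had differences of 0.18 ± 0.23 and 0.26 ± 0.26. TTK, which starts the spindle checkpoint, was the scarcest kinase, at 0.624 ± 0.225 TPM in RES and 0.519 ± 0.257 TPM in ADL. None of the 7 had an unadjusted limma p under 0.05.

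The spindle checkpoint delays the parting of chromosomes until every one is attached, by holding CDC20, the activator of the anaphase-promoting complex. BUB1B, which binds CDC20, stood at 2.24, 0.956, 2.40 and 1.60 TPM in RES lambs 1 to 4 and at 0.585, 1.43, 0.992 and 0.984 TPM in ADL lambs 1 to 4. RES lamb 2 was the only RES lamb within the range of ADL. Its difference was 0.47 ± 0.19 (SE, limma adjusted p = 0.478, unadjusted p = 0.039).

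CDC20 had the largest ratio of the highest to the lowest lamb of the 43, 12.6. It stood at 1.35, 1.42, 2.97 and 1.77 TPM in RES lambs 1 to 4 and at 0.236, 2.00, 1.48 and 1.88 TPM in ADL lambs 1 to 4. ADL lamb 1, with 3 reads, was far below the other 7 lambs. The kinase gene BUB1 had its lowest value in the same lamb, 0.204 TPM, where the other ADL lambs lay between 0.764 and 1.34 TPM and the RES lambs between 0.969 and 1.32 TPM. MAD2L1, the most abundant of the 4, averaged 8.21 ± 2.12 TPM in RES and 7.41 ± 1.91 TPM in ADL.

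The proteins of mitotic chromosomes and of the spindle had the largest differences, with 9 of 9 above 0 both before and after size-factor scaling and medians of 0.37 and 0.32. Their summed level was 46.9, 45.5, 58.1 and 59.4 TPM in RES lambs 1 to 4 and 31.6, 43.9, 36.4 and 41.6 TPM in ADL lambs 1 to 4. These sums, taken without size-factor scaling, did not overlap, although BIRC5 and TPX2 supply most of them. The gap was narrow, from 43.9 TPM in ADL lamb 2 to 45.5 TPM in RES lamb 2. Of the 9 genes, 1 had groups that did not overlap, against 6.3% of all genes. MKI67 encodes Ki-67, the coat of mitotic chromosomes that pathologists stain to count cycling cells. It stood at 2.35, 1.21, 2.18 and 2.41 TPM in RES lambs 1 to 4 and at 0.858, 1.63, 0.796 and 1.74 TPM in ADL lambs 1 to 4.

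In MKI67, RES lambs 1, 3 and 4 were above every ADL lamb, and RES lamb 2 lay within the range of ADL. The ratio of its group means was 1.62 and its log2 difference 0.43 ± 0.19 (SE, limma adjusted p = 0.488, unadjusted p = 0.0511). In the authors' deposited table its unadjusted p is 0.0504. TOP2A, topoisomerase II alpha, untangles the copied chromosomes. It stood at 5.57, 3.55, 9.42 and 8.73 TPM in RES lambs 1 to 4 and at 3.08, 5.74, 3.63 and 6.11 TPM in ADL lambs 1 to 4. Only RES lambs 3 and 4 were above every ADL lamb. Its difference was 0.44 ± 0.29 (SE, limma adjusted p = 0.595).

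CENPF, a large protein of the kinetochore and the nuclear matrix, was the 1 gene of the 43 whose groups did not overlap. It stood at 1.24, 0.832, 1.44 and 1.10 TPM in RES lambs 1 to 4 and at 0.457, 0.772, 0.754 and 0.680 TPM in ADL lambs 1 to 4. The gap was narrow, since the lowest RES lamb lay at 0.832 TPM and the highest ADL lamb at 0.772 TPM, with 37 to 120 reads per lamb. Its difference was 0.37 ± 0.11 (SE, limma adjusted p = 0.467, unadjusted p = 0.0104), the smallest p of the 43. In the authors' deposited table it has 0.46 ± 0.17 (SE, unadjusted p = 0.00556) and no adjusted p. CENPF lies on the minus strand of chromosome 12 from 66988113 to 67051424 in the authors' annotation (genome build not stated).

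KIF11, the motor that pushes the spindle poles apart, stood at 2.40, 1.96, 3.57 and 3.66 TPM in RES lambs 1 to 4 and at 1.67, 2.32, 1.75 and 1.82 TPM in ADL lambs 1 to 4. ADL lamb 2 lay above RES lamb 2, and the other RES lambs lay above all ADL lambs. Its difference was 0.41 ± 0.16 (SE, limma adjusted p = 0.476, unadjusted p = 0.0341). BIRC5, or survivin, of the chromosomal passenger complex averaged 13.7 ± 4.68 TPM in RES and 8.97 ± 2.23 TPM in ADL. NUSAP1, PRC1 and KIF20A, which bundle or move microtubules of the late spindle, had differences of 0.33 ± 0.16, 0.34 ± 0.17 and 0.27 ± 0.24. TPX2, which nucleates spindle microtubules, averaged 19.3 ± 2.66 TPM in RES and 16.3 ± 1.25 TPM in ADL.

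**Figure D2:**
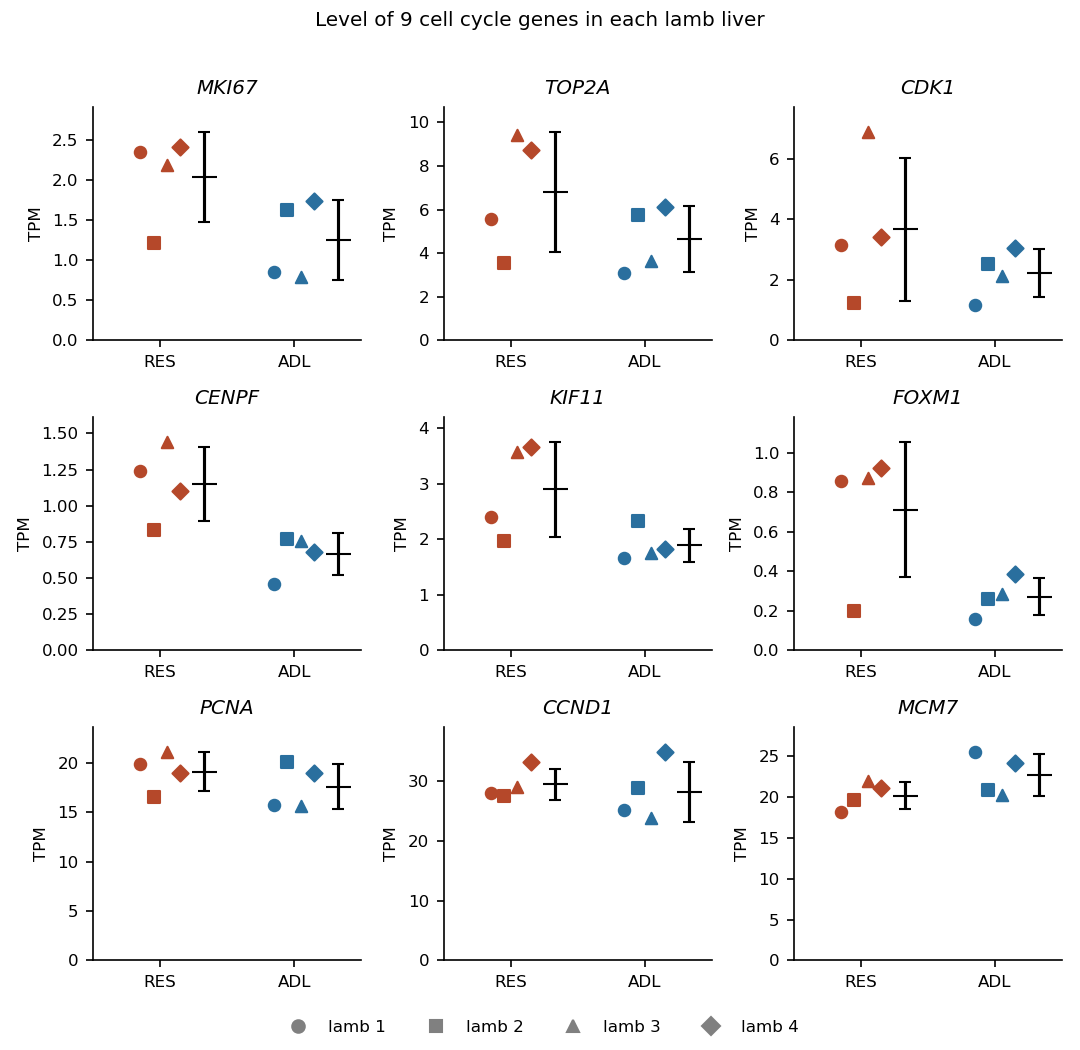
TPM of 9 of the genes in each lamb, RES left of ADL, with a symbol for each lamb number and the group mean ± SD (n = 4) as a bar. RES lamb 2 lies with the ADL lambs in MKI67, TOP2A, CDK1 and FOXM1, the groups do not overlap in CENPF, and PCNA, CCND1 and MCM7 differ little.

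The sum over the set differed from lamb to lamb within both groups. The 43 genes summed to 273, 244, 337 and 305 TPM in RES lambs 1 to 4 and to 227, 273, 236 and 297 TPM in ADL lambs 1 to 4. ADL lamb 1 was the lowest of the 8 lambs for 25 of the 43 genes, or 58.1%, and RES lamb 3 was the highest for 25. Over all genes tested, ADL lamb 1 was the lowest for 18.4% and RES lamb 3 the highest for 12.8%. After size-factor scaling the counts of the 43 were 24 and 24, against 14.7% and 12.1% of all genes. The coefficient of variation over the 8 lambs was more than double that expected from counting alone for 25 of the 43 genes. That share was not taken over all genes, so the count does not set the 43 apart.

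The lean of the 43 towards RES was recomputed with these lambs left out. Since they were picked as the highest RES and the lowest ADL lamb for 25 of these same genes each, leaving them out had to narrow the difference, and the values describe by how much. Without RES lamb 3, 33 of the 43 had a RES mean above ADL and the median difference was 0.08. Without ADL lamb 1 it was 31 of the 43 and 0.10. Without both, 25 of the 43 were above, against 67% of all genes, and the median was 0.02, under the 0.076 of all genes in the same lambs. These 2 lambs were chosen after the data were seen.

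**Figure D3:**
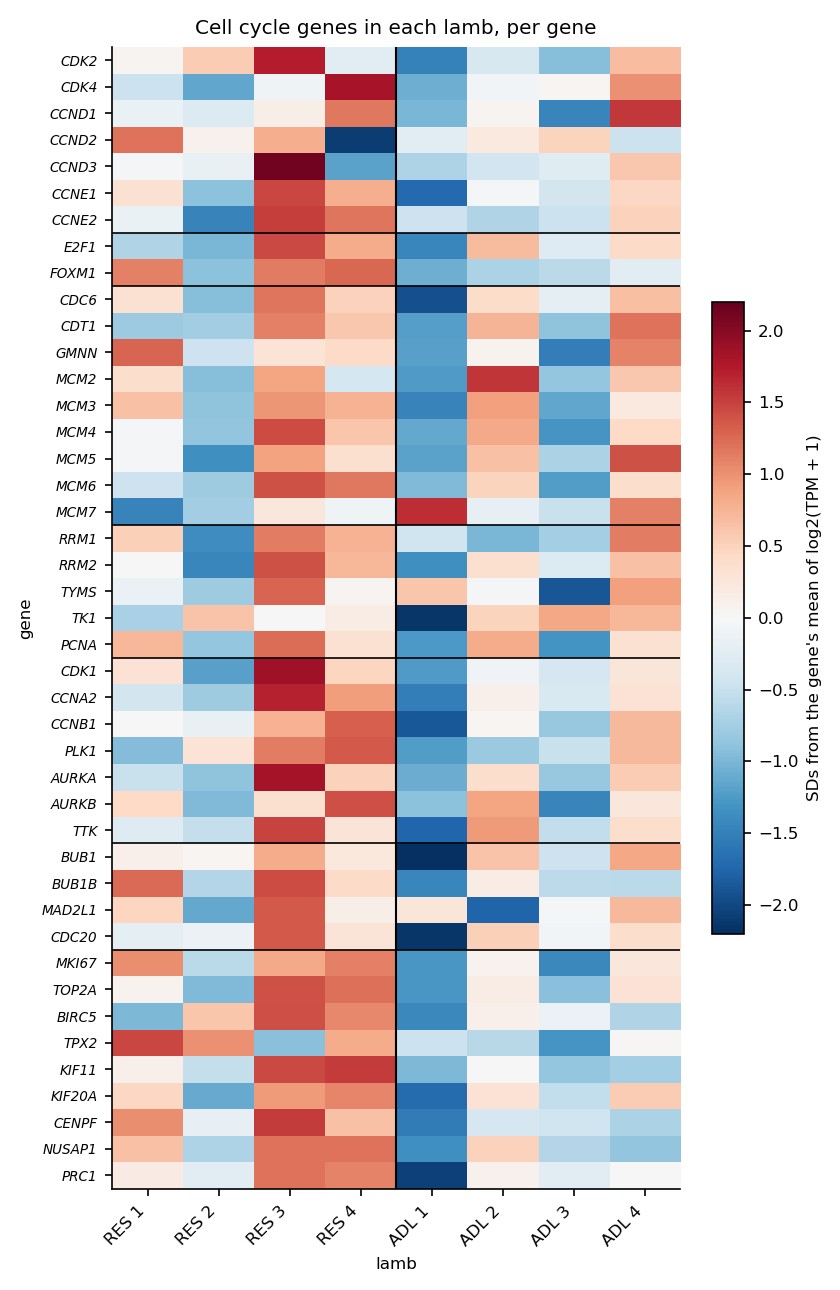
Each of the 43 genes (lines separate the roles, in the order of the text) in each lamb, as SDs from the gene's own mean of log2(TPM + 1) over the 8 lambs, RES lambs left of ADL lambs. RES lamb 3 is high and ADL lamb 1 low through most roles, while MCM7 and TPX2 follow other orders of lambs.

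Covariation over the 8 lambs was then described with MKI67 as the index gene. Of the other 42 genes, 40 had a positive Pearson's r with MKI67 on the log2(TPM + 1) scale, or 95.2%, against 66.7% of all genes tested. An unadjusted exact permutation p under 0.05 with a positive r was reached by 22 of the 42, or 52.4%, against 10.4% of all genes. After adjustment over all 17780 genes 0% passed, and none of the 42 did, by Pearson's r or by Spearman's rho. The median r of the 42 was 0.703, against 0.226 over all genes. With each lamb set relative to its group mean, 41 of the 42 were positive, against 60.7% of all genes, and the median was 0.704, against 0.135. The genes thus also varied together among lambs of the same group. A negative r at that unadjusted p was found for 0 of the 42, against 1.92% of all genes. The labels give no batch.

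The highest r with MKI67 in the set belonged to MCM3, PCNA, GMNN (0.891), AURKB (0.887) and TOP2A, genes of replication and of mitosis. MCM3 had r = 0.92 (exact permutation p = 0.0032, adjusted p = 0.225 over all genes, n = 8) and rho = 0.714 (exact p = 0.0576, adjusted p = 0.456), and r = 0.782 without ADL lambs 1 and 3, the pair farthest from the median of MKI67. PCNA had r = 0.897 (exact p = 0.00578, adjusted p = 0.257, n = 8) and rho = 0.643 (exact p = 0.0962, adjusted p = 0.516), and r = 0.695 without that pair. TOP2A had r = 0.883 (exact p = 0.00615, adjusted p = 0.264, n = 8) and rho = 0.738 (exact p = 0.0458, adjusted p = 0.435), and r = 0.798 without them. CDK1, with 17 of the 42 above it, had r = 0.753 (exact p = 0.0274, adjusted p = 0.351, n = 8) and rho = 0.857 (exact p = 0.0107, adjusted p = 0.323), and r = 0.746 without them. Among all genes ranked by r with MKI67, MCM3 stood at percentile 99.5, PCNA at 99.1 and TOP2A at 98.7.

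Size-factor scaling lowered the share of all genes with a positive r, which was 66.7% before it. The cause was not tested. After scaling, 40 of the 42 were again positive, against 50.2% of all genes, and 15 of the 42 had a positive r with an unadjusted exact permutation p under 0.05, against 4.29% of all genes. The median r of the 42 was then 0.642, against 0.00321 over all genes. With TOP2A in place of MKI67 as the index gene, the median r of the other 42 was 0.833 in the deposited TPM values, without scaling. No median over all genes was taken for TOP2A, so this value has no background beside it.

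Pairs within the set showed the same. The median r of the 903 pairs was 0.641, against 0.0502 over all pairs of genes tested, and 91.1% of the pairs were positive, against 54.4%. By role the median pair had r = 0.785 among the chromosome and spindle genes, 0.774 among the licensing genes, 0.772 among the S and M phase cyclins and kinases, 0.535 among the nucleotide genes, 0.521 among the G1 genes and 0.474 among the checkpoint genes. These values describe 8 livers and carry no test, and differences between roles were not tested.

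**Figure D4:**
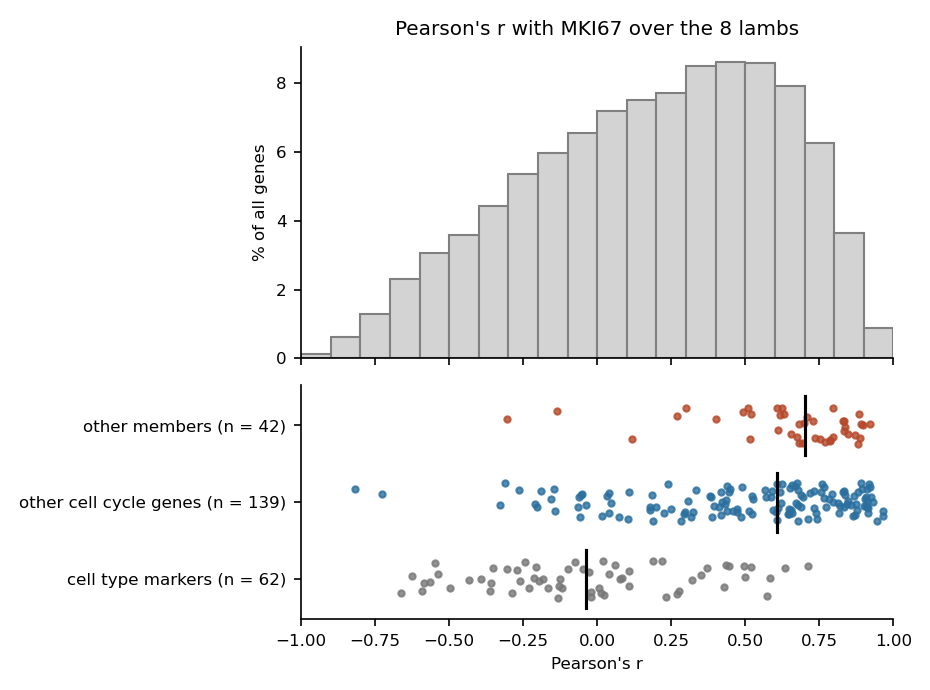
Pearson's r with MKI67 over the 8 lambs on the log2(TPM + 1) scale. The upper panel gives the share of all 17780 genes in each bin, and the lower panel gives each of the 42 other genes of the set, 139 other cell cycle genes and 62 cell type markers as points with their medians as lines; the set lies mostly to the right, with a median of 0.703.

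A few of the 43 did not follow MKI67. MCM7 had r = -0.303 and CCND2, cyclin D2, had r = -0.135 with MKI67, the 2 negative values. TK1 had 0.118, CCND3 0.27, MAD2L1 0.301, BIRC5 0.401 and TPX2 0.493. TPX2 had r = 0.0803 with TOP2A, and its level of 17.8 TPM over all lambs was several-fold that of the other spindle genes apart from BIRC5, which averaged 11.3 TPM. MCM7 overlaps the microRNA genes MIR106B and MIR25, which lie in it on the same strand.

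**Figure D5:**
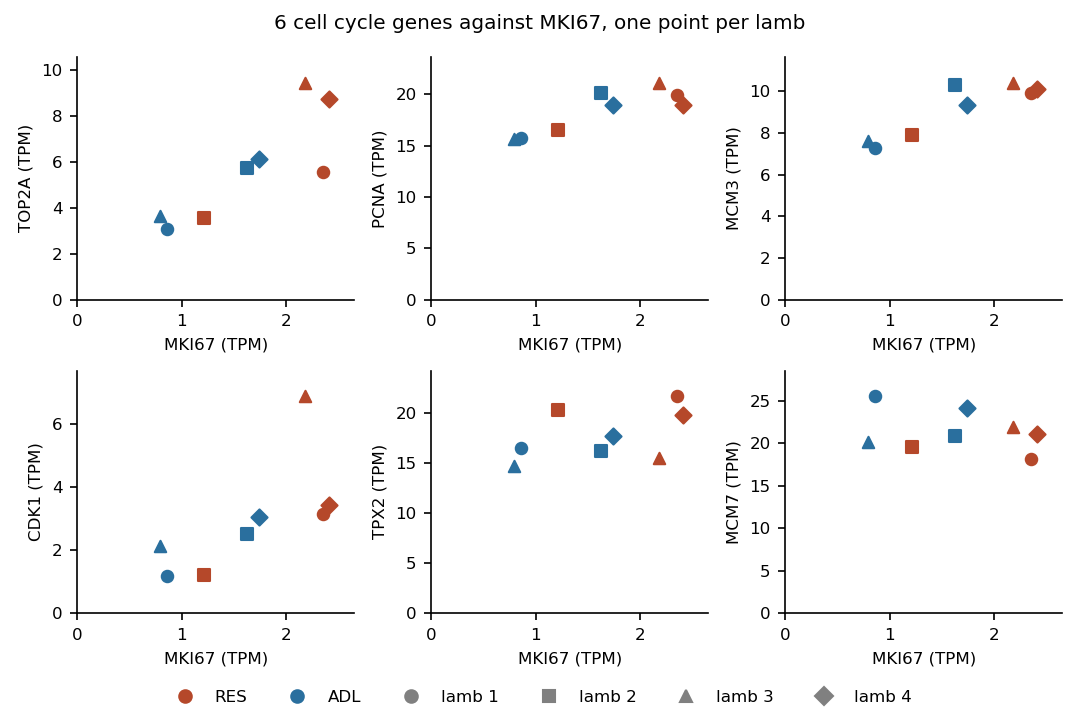
TPM of 6 genes against the TPM of MKI67, with 1 point per lamb, colour for the group and symbol for the lamb number. TOP2A, PCNA, MCM3 and CDK1 are higher in lambs with more MKI67 (r on the log2(TPM + 1) scale between 0.753 and 0.92), and TPX2 and MCM7 show no such order (r = 0.493 and -0.303).

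Further genes of the same machinery were read from lists of 141 symbols, of which 140 were found and 139 tested. None passed the adjusted threshold. The RES mean was above ADL for 113 of the 139, or 81.3%, against 67.7% of all genes, with a median difference of 0.13, and for 86 after size-factor scaling, where the share over all genes was 50.8%. The counts of the single lists are to be read beside those 2 shares. The groups did not overlap for 9 of the 139, all higher in RES, or 6.47%, which is close to the 6.3% of all genes. At an unadjusted limma p under 0.05 there were 17, all higher in RES, or 12.2%, against 10.2% of all genes. A positive r with MKI67 at an unadjusted exact permutation p under 0.05 was found for 50 of the 139, or 36%, against 10.4% of all genes.

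Motors and cytokinesis genes had the largest median difference of these lists, 0.23, and the highest median r with MKI67, 0.797. Both were above the 0.19 and 0.703 of the 43. Of 29, 27 had a RES mean above ADL, 26 after scaling. A positive r with MKI67 at an unadjusted exact permutation p under 0.05 was found for 20. At an unadjusted limma p under 0.05 there were 7 higher in RES, against 8.58% of all genes. CDC27, a core subunit of the anaphase-promoting complex, stood at 16.2, 16.3, 14.9 and 17.0 TPM in RES lambs 1 to 4 and at 11.1, 13.9, 11.4 and 12.8 TPM in ADL lambs 1 to 4. The groups did not overlap, and the difference was 0.37 ± 0.09 (SE, limma adjusted p = 0.467, unadjusted p = 0.00324). DLGAP5, which stabilises the fibres of the spindle, averaged 1.96 ± 0.540 TPM in RES and 0.975 ± 0.550 TPM in ADL. KIF23, a motor of the midzone where the cell is cut, was chosen after its values were seen, as the highest r with MKI67 of this list, 0.964. The highest r of the kinetochore, cohesin and condensin list was 0.964 as well. No gene passed the adjusted threshold for r with MKI67.

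Of 30 kinetochore, cohesin and condensin genes, 24 had a RES mean above ADL and all 30 had a positive r with MKI67. INCENP, the scaffold of the chromosomal passenger complex, averaged 1.16 ± 0.183 TPM in RES and 0.782 ± 0.115 TPM in ADL. CENPE, a motor that brings chromosomes to the middle of the spindle, averaged 0.620 ± 0.186 TPM in RES and 0.319 ± 0.102 TPM in ADL. Neither overlapped between the groups, and both had a limma adjusted p of 0.467. Of 45 genes of origin firing and the replication fork, 32 had a RES mean above ADL, a share near the 67.7% of all genes, and 15 after scaling, under the 50.8% of all genes. ASF1B, a histone chaperone of the fork, averaged 1.89 ± 0.369 TPM in RES and 1.08 ± 0.432 TPM in ADL, and ORC4 of the origin recognition complex lay between 6.98 and 7.42 TPM in RES and between 5.25 and 6.84 TPM in ADL.

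The list of CDK inhibitors, pocket proteins and CDK regulators holds brakes of the cycle together with activators such as CDK6 and the CDC25 phosphatases. Of its 18 tested genes, 14 had a RES mean above ADL. The 4 below, named after their values were seen, were all brakes, with differences of -0.23 for CDKN1C, -0.16 for CDKN2D, -0.03 for CDKN1B and -0.02 for WEE1, a kinase that holds CDK1 inactive. Other brakes of the list lay above 0, with 0.44 for CDKN1A, 0.31 for RB1, 0.30 for RBL2 and 0.19 for RBL1. PKMYT1 and CDKN2C had 0.09 and 0.08. The brakes of the list thus had no common direction. RB1, the retinoblastoma protein itself, averaged 2.31 ± 0.340 TPM in RES and 1.67 ± 0.232 TPM in ADL without overlap (limma adjusted p = 0.468). CDKN3, a phosphatase of CDKs, averaged 1.68 ± 0.361 TPM in RES and 1.05 ± 0.413 TPM in ADL. CDKN1C, the CDK inhibitor p57, was chosen after its values were seen, as the lowest r with MKI67 in these lists. It stood at 2.96, 4.38, 4.04 and 2.73 TPM in RES lambs 1 to 4 and at 5.23, 2.77, 5.34 and 4.15 TPM in ADL lambs 1 to 4. It was highest in ADL lambs 1 and 3, where MKI67 was lowest, with r = -0.818 (exact permutation p = 0.018, adjusted p = 0.317 over all genes, n = 8) and rho = -0.857 (exact p = 0.0107, adjusted p = 0.323).

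Among 17 further E2F, DREAM and MYB factors, which switch cell cycle genes on or hold them silent, 16 had a RES mean above ADL, 12 after scaling. RBBP4, a histone-binding subunit of DREAM, averaged 42.4 ± 4.05 TPM in RES and 36.0 ± 1.04 TPM in ADL, and LIN52, another subunit, averaged 5.13 ± 0.672 TPM in RES and 3.94 ± 0.459 TPM in ADL. The groups did not overlap for either. Both had limma adjusted p-values above the threshold, at 0.467 and 0.468.

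Outside the lists, the genes with the highest r with MKI67 were PLD2, a phospholipase D (0.986), PANX1, a membrane channel (0.981), LOC101120923, described as the isomerase FKBP3 (0.976), KRR1, a factor of ribosome assembly (0.975), and SPRTN (0.974), a protease that clears proteins bound to DNA at the replication fork. The lowest were LOC105606067, described as a mitochondrial RNA polymerase-like gene (-0.974), LOC101110134 (-0.948) and LOC105605903 (-0.934), both described as class-2 alcohol dehydrogenase-like, LOC101108172 (-0.942), described as a ribosomal protein S26-like gene, and ZP2 (-0.937), known for the coat of the egg. Over all genes each had an adjusted exact permutation p of at least 0.216, the smallest in the table. PLD2 ran from 2.13 to 2.91 TPM in RES and from 1.83 to 2.52 TPM in ADL, a far smaller span than that of MKI67.

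Markers of hepatocytes and of the other cells of the liver were set beside MKI67 in the same way. Of 62 tested in 7 lists, 0 reached a positive r at an unadjusted exact permutation p under 0.05, against 10.4% of all genes. The counts of positive r that follow are to be read beside the 66.7% of all genes with a positive r. The T, NK and B cell markers summed to between 41.5 and 62.4 TPM in RES and to between 35.1 and 52.4 TPM in ADL, and 4 of 12 tested had a positive r. JCHAIN alone gave 35.1 TPM of the highest sum, that of RES lamb 2. Of the 12, 5 had a log2 difference above 0 and 7 below, with a median of -0.01. The groups did not overlap for 1 of the 12, CD2, against 6.3% of all genes. CD2, of T and NK cells, was higher in every RES lamb than in any ADL lamb, at 3.11 ± 0.940 TPM in RES and 1.69 ± 0.218 TPM in ADL (limma adjusted p = 0.467), with r = 0.633 with MKI67. CD3E, of T cells, averaged 6.81 ± 1.90 TPM in RES and 6.93 ± 1.39 TPM in ADL.

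The macrophage markers summed to between 581 and 1194 TPM in RES and to between 749 and 922 TPM in ADL, and 7 of 10 had a positive r of at most 0.269. Of the 10 erythroid markers found, HEMGN was at 0 in all lambs, and SLC4A1, KLF1, GATA1 and EPOR had means under 0.1 TPM. The endothelial markers summed to between 215 and 235 TPM in RES and to between 200 and 222 TPM in ADL, with 5 of 9 positive and a highest r of 0.712, for LYVE1 of sinusoidal and lymphatic endothelium (exact permutation p = 0.0549, adjusted p = 0.416 over all genes), above the median of the cell cycle genes. The stellate cell and fibroblast markers had 3 of 10 positive with a highest r of 0.52, the bile duct markers 5 of 7 with 0.444, the hepatocyte markers 3 of 10 with 0.5 and the erythroid markers 1 of 4 with 0.351. The part of these cells in the cell cycle values was not tested.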

How the data were processed

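Per the labels' protocols, poly(A) RNA of 8 livers was sequenced as paired reads. The tools listed in the submitters' processing notes are DESeq2 1.12.4 and bcl2fastq 1.8.4. For the aligner, the read counter and the build the sources used here say nothing. The authors deposited 1 table with TPM values per lamb, scaled to the same total, the gene length behind them, and DESeq2 columns, per the file headers: a mean of normalized counts (a signal over size factors), the log2 fold change with its standard error (the shrunken one is quoted), the Wald statistic (a score), and p-values with adjusted p-values.

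TPM times length, divided by the smallest value above 0 in a library, gave whole reads for 100% of values (tolerance 1e-06), so depth is known. The voom test used these reads, and the coefficients of variation used them divided by size factors. The other values were computed from TPM. The groups were tested on log2(TPM + 1) with limma 3.58.1 in R 4.3.3 (eBayes with a trend, two-sided) where the mean reached 0.1 TPM, with Benjamini-Hochberg adjustment and a threshold of 0.05. On this scale differences of low genes are understated. Correlations used exact two-sided permutation over all 40320 pairings of 8 lambs. Scripts were tested on simulated data. The 43 genes and the lists were chosen with earlier results of these data known. Of 214 list symbols outside the 43, 209 were found, 4 of the matched symbols through a sheep RefSeq table (ARS-UI_Ramb_v3.0) and 3 through aliases in the file. Named are MKI67, TOP2A, CDK1, PCNA and CCND1, the 3 members per direction with the smallest p, the most and least abundant member of each role, the 2 genes with the smallest p of each pathway list and the 5 per sign closest to MKI67 outside the lists; other members are named with levels, ranges or differences. CDKN1C and KIF23 were named after their values were seen, for their r with MKI67. Libraries of a group differed by more than sampling noise, so each lamb counted as 1 replicate. Alternatives were another minimum or pseudocount, size-factor scaling, voom on the recovered reads, robust eBayes, a lamb number block, other thresholds, another index gene and each lamb left out.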

Additional observations from a re-analysis of the deposited data

Results flagged for a closer look

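In groups of 4, a lamb was marked where its gap to the nearest other lamb exceeded Dixon's 95% critical share of the range of its group; 86 groups were examined, and chance marks about 1 in 20. FOXM1 was marked in RES lamb 2, at 0.201 TPM, where the other RES lambs lay between 0.855 and 0.921 TPM and the ADL lambs between 0.158 and 0.388 TPM. TK1 was marked in ADL lamb 1, at 0.583 TPM, where the other ADL lambs lay between 1.85 and 2.10 TPM. Both genes rest on few reads per lamb, 3 to 17 for FOXM1 and 4 to 16 for TK1.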

How the results depend on the processing

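No cell cycle gene passed the adjusted threshold under any alternative run, and their median log2 difference, 0.19, lay between 0.08 and 0.27 with 1 lamb left out and at 0.02 without ADL lamb 1 and RES lamb 3, a choice made after seeing the data that had to lower it. Over all genes 0 passed, 1 (LOC101120736) with no minimum, and 0 to 1 with 1 lamb left out (MIR143 without RES lamb 4, RGS6 without ADL lamb 1, LOC106991505 without ADL lamb 4); at an unadjusted limma p under 0.05 there were 1820, with 4 of the cell cycle genes. Same-numbered lambs had correlations of deviations between -0.1093 and 0.1418, and lambs with different numbers between -0.1285 and 0.0703. These few values cannot decide whether lamb numbers pair the lambs. With the number as a replicate block 0 genes passed and the median was 0.19. The median r with MKI67, 0.703, was 0.642 after size-factor scaling, 0.655 by Spearman, 0.833 with TOP2A as index, 0.573 without the 2 farthest lambs and 0.663 to 0.804 with 1 lamb left out. The median pair r, 0.641, was 0.595 at a minimum of 1 TPM, 0.555 after scaling, 0.514 without ADL lamb 1 and RES lamb 3 and 0.579 to 0.691 with 1 left out. The log2 ratio of the group means of E2F1 and FOXM1 summed, 0.49, was 1.39 without E2F1.

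Signs of small log2 differences turned; the cause was not tested. Of the 43, 40 were above 0 before and 32 after size-factor scaling, and 31 of the 42 tested by voom, so more genes turned than are named here. After size-factor scaling and with voom, CCND1 had -0.03 and -0.03, RRM1 -0.04 and -0.05, and TK1 -0.05 and -0.04. Without ADL lamb 1 and RES lamb 3, CDK1 had -0.04, E2F1 -0.24, CDC6 -0.09, TK1 -0.22, TTK -0.09 and BUB1 -0.06. With 1 lamb left out, CCND1 ran from -1.1e-04 to 0.18, MCM5 from -0.11 to 0.09, MCM2 from -0.17 to 0.18, E2F1 from -0.06 to 0.29, CDC6 from -0.01 to 0.27, TK1 from -0.22 to 0.10, TTK from -5.0e-03 to 0.19, MAD2L1 from -0.04 to 0.28 and BUB1 from -0.01 to 0.31. Few reads limit the scarcest genes: 20 of the 43 had a mean under 50 normalized reads.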
